A study of Mus musculus with 8 samples.

Results

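The results below concern the difference between *Btg1*-/- and wild type (WT) mouse embryonic fibroblasts (MEFs) in their transcript response to glutamine starvation, gene by gene and by functional group. The response of a gene is its mean log2 value in starved cells minus that in untreated cells of the same genotype. The difference in response is the response in *Btg1*-/- cells minus the response in WT cells, so a positive value marks a weaker fall or a stronger rise in *Btg1*-/- cells. All rows of the value table with a mean of at least 3, the background level of the study's methods, in at least 1 of the 4 groups were taken, which left 12691 of 18132 rows. Measured levels did not enter the choice in any other way.

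MEFs are connective tissue cells grown from dissected embryos, here of strain C57BL/6J at day 13.5 postcoitum. The 4 groups were *Btg1*-/- cells kept for 16 h in medium without glutamine, untreated *Btg1*-/- cells, WT cells kept for 16 h without glutamine, and untreated WT cells, with 2 samples per group on Illumina MouseRef-8 v2 bead arrays. The mutant cells came from *Btg1* knockout embryos and the controls from wild type embryos. The usual medium held heat-inactivated serum and the glutamine-free medium dialyzed serum, so the loss of glutamine and the change of serum cannot be told apart. The samples of a group were described as biological duplicates, with no source here naming their embryos, so p-values measure the spread between these cell preparations. In bulk RNA a change in the share of a cell type and a change of RNA per cell cannot be told apart.

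*Btg1*, the deleted gene, measured 10.40 and 10.45 in starved and 9.36 and 9.16 in untreated *Btg1*-/- cells, against 12.40 and 12.40 in starved and 11.17 and 11.23 in untreated WT cells. The groups did not overlap, and where the probe lies with regard to the deletion was not given. The *Btg1* row rose by 1.16 in *Btg1*-/- and by 1.2 in WT cells, a difference of -0.04 (standard error 0.14, limma). Array medians were 3.78 to 3.81, and the correlation across genes between arrays of 1 group was 0.984 to 0.988. *Eif2s3y*, a Y-linked gene, measured 9.81 and 9.49 in WT replicate 2 and 1.94 to 3.25 on the other arrays. The 17 macrophage markers kept summed to 109 and 130 log2 units in starved and 111 and 137 in untreated *Btg1*-/- cells, against 91.5 to 98.3 in starved and 91.3 to 95.2 in untreated WT cells, with the higher *Btg1*-/- sums in replicate 1. *Lyz2*, a lysozyme of macrophages, measured 12.25 and 10.48 in starved and 12.26 and 10.89 in untreated *Btg1*-/- cells, against 10.24 and 9.87 in starved and 9.77 and 9.86 in untreated WT cells. None of the macrophage markers was called in the response of either genotype (with the cell preparation as a block, 2 fell in *Btg1*-/- cells and 1 rose and 2 fell in WT cells). Their median difference in response was -0.35, and ran between -1.21 and 0.64 when 1 array was left out.

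Glutamine feeds the synthesis of nucleotides and amino acids and the citric acid cycle, and proline, the hallmark residue of collagen, can be made from it. Cells short of an amino acid slow protein synthesis through phosphorylation of eIF2α, make more of the transcription factor ATF4, leave the cell cycle and raise recycling through autophagy and the lysosome. BTG1 is a small antiproliferative protein of the BTG/TOB family. It has no catalytic activity of its own and binds the arginine methyltransferase PRMT1 and deadenylase subunits of the CCR4-NOT complex.

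The responses of both genotypes ran in the same direction for nearly every gene that was called in both. Of the 12691 genes, 1071 (8.44%) rose and 919 (7.24%) fell in *Btg1*-/- cells. In WT cells 1667 (13.1%) rose and 1471 (11.6%) fell. These calls are at an adjusted p under 0.05 from limma with Benjamini-Hochberg adjustment. Calls were shared by 1748 genes, 1389 genes were called in WT cells alone and 241 in *Btg1*-/- cells alone. A call in 1 genotype alone does not show a difference between the genotypes. Counts of calls also follow the number of arrays: without both arrays of WT replicate 1, 1264 genes were called in *Btg1*-/- and 912 in WT cells, and without those of WT replicate 2, 1256 and 1205. Without *Btg1*-/- replicate 1 there were 769 calls in *Btg1*-/- and 3307 in WT cells, and without *Btg1*-/- replicate 2 there were 871 and 3294. The test of the difference itself called 0 genes (0%) at an adjusted p under 0.05, the smallest adjusted p being 0.232, and 815 genes had an unadjusted p under 0.05, 418 (3.29%) with a difference above 0 and 397 (3.13%) below 0. An ordinary linear model per gene without moderation gave 0 calls and 803 genes at an unadjusted p under 0.05. The median standard error of the difference was 0.40 with 2 arrays per group, and none of the 921 genes with a difference of at least 1 log2 unit in size passed the adjustment. The 4 combinations of a starved and an untreated array gave responses that lay wholly above those of WT cells for 1217 genes (9.59%) and wholly below for 1270 (10.0%). Between the genotypes, 285 genes (2.25%) differed in the starved and 84 (0.662%) in the untreated state at an adjusted p under 0.05 from limma.

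Responses were mostly smaller in *Btg1*-/- cells, for rising and for falling genes. A gene was called responsive where the average of both responses had an adjusted p under 0.05 from limma and a size of at least 1 on the log2 scale. This choice favours neither genotype if both spread equally, since the average and the difference then vary independently. The median absolute difference between the 2 arrays of a group was 0.23 in starved and 0.27 in untreated *Btg1*-/- cells, against 0.21 and 0.22 in WT cells. Of 499 responsive genes that rose, 398 had a smaller rise in *Btg1*-/- cells, with median responses of 1.15 in *Btg1*-/- and 1.47 in WT cells. Of 627 that fell, 486 had a smaller fall in *Btg1*-/- cells, with medians of -1.24 in *Btg1*-/- and -1.58 in WT cells. Among the 235 of these genes with an unadjusted p under 0.05 for the difference, 232 had the smaller response in *Btg1*-/- cells. The exceptions were *Afap1l1*, *Tuba4a*, an alpha tubulin, and *Zfp647*. *Zfp647*, a zinc finger protein, rose by 1.69 in *Btg1*-/- cells and changed by 0.45 in WT cells (adjusted p = 0.379, limma). The share with a smaller response was 75.3% for falling and 74.4% for rising genes when genes of any size were taken, and 80.4% and 94.0% for those of at least 4-fold.

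**Figure D1:**
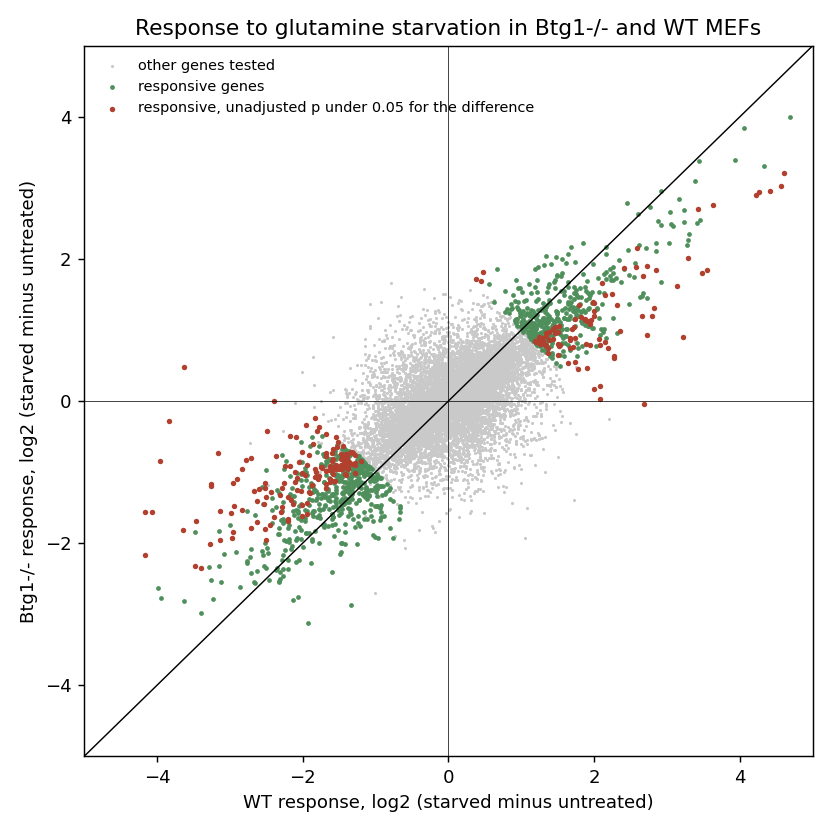
Response to glutamine starvation in *Btg1*-/- cells (vertical axis) against that in WT cells (horizontal axis), in log2 units, with 1 point per gene for 12691 genes and the line of equal responses. Coloured points are the responsive genes, and of the 235 with an unadjusted p under 0.05 for the difference, 232 lie on the side of the line where the *Btg1*-/- response is the smaller.

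The sizes of the responses were then set side by side for functional groups. Over 46 lists of pathway genes, 957 of whose members were kept, the median difference in response was above 0 for 33 lists and below 0 for 13. For the 25 lists with at least 10 responsive members of any size, the summed response of those members in *Btg1*-/- cells, each counted in the direction of its average response, was set against the sum in WT cells. It was under 75% of WT for 11 lists, 75% to 100% for 12 lists and over 100% for 2 lists, beside 77.3% over all 4131 responsive genes of any size. Genes of ribosome biogenesis, proteasome, NRF2, oxidative phosphorylation and mitosis stood at 95.3% to 110%. With 1 of the 4 cell preparations left out, the responsive members were picked anew and need not be those above. Proteasome genes then stood at 67.7% to 76.7% and oxidative phosphorylation genes at 58.6% to 89.1%. The lowest values were those without *Btg1*-/- replicate 1 and without WT replicate 2, in that order. The loss of a preparation and the change of members cannot be told apart in these percents, and these 2 lists had no settled place. Mitosis stood at 82.6% to 108%, NRF2 at 86.8% to 121% and ribosome biogenesis at 88.5% to 130%. Collagens, TGF-β and WNT signalling, collagen processing and the lysosome stood at 49.8% to 65.5%. The listed ATF4 stress regulators, at 79.7%, and the aminoacyl-tRNA synthetases, at 76.9%, lay close to the value of all genes. By the median difference these 2 lists lay apart, at -0.32 for the stress regulators and -0.06 for the synthetases. The difference was below 0 for 16 of 18 stress regulators and 12 of 20 synthetases, beside 6403 of all 12691 genes. Of 17 responsive stress regulators, 15 had the smaller response in *Btg1*-/- cells, beside 3092 of 4131 over all genes.

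**Figure D2:**
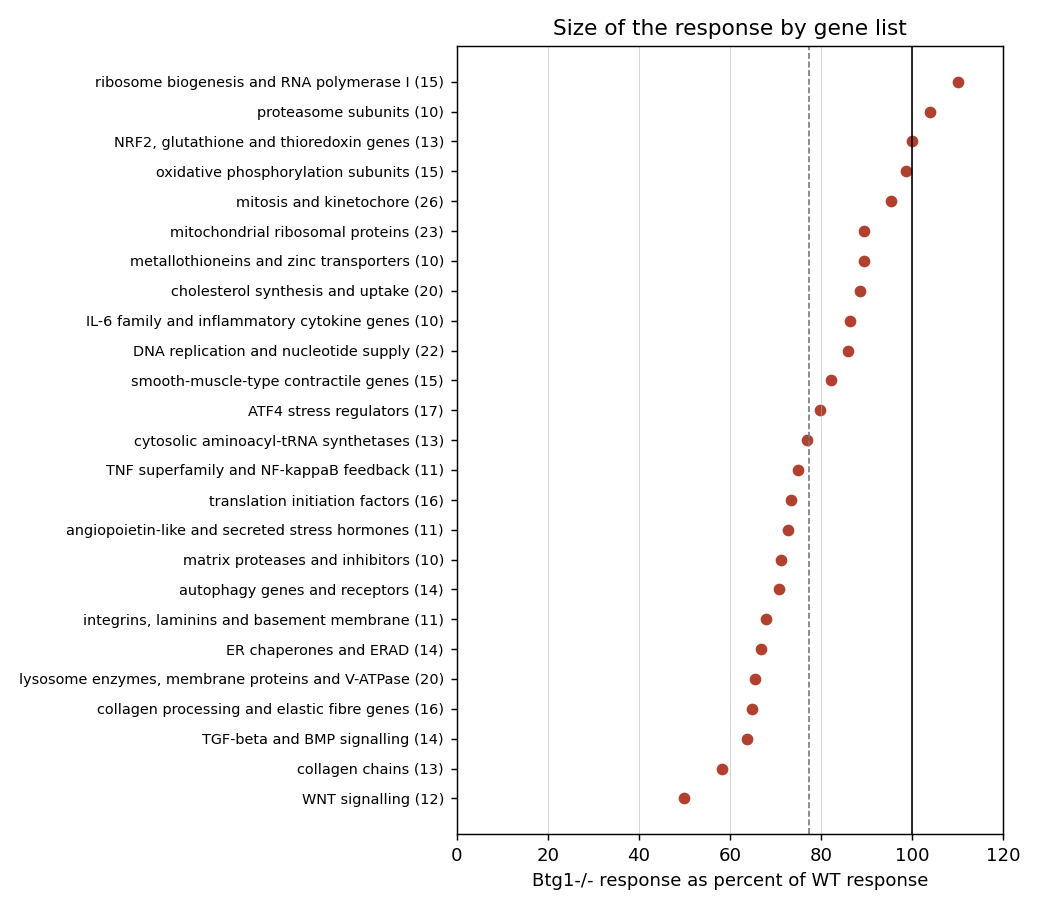
Summed response of the responsive members of each list in *Btg1*-/- cells as a percent of that in WT cells, for the 25 lists with at least 10 such members (their number in brackets). The solid line marks an equal response and the dashed line the 77.3% of all responsive genes; the lists range from 49.8% (WNT signalling) to 110% (ribosome biogenesis).

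Genes of cell division kept their response, in the sense that calls were shared. Of 28 mitosis and kinetochore genes, 22 fell in *Btg1*-/- and 26 in WT cells, beside 7.24% and 11.6% of all genes. The 22 fell in both genotypes, and the median response of the list was -1.52 in each. Without WT replicate 2, 22 fell in *Btg1*-/- and 16 in WT cells. *Plk1*, the kinase that drives entry into mitosis, measured 8.39 and 8.57 in starved and 10.62 and 11.03 in untreated *Btg1*-/- cells, against 9.36 and 9.04 in starved and 11.57 and 11.55 in untreated WT cells. It fell by 2.34 in *Btg1*-/- and by 2.36 in WT cells, a difference of 0.02 (standard error 0.22, limma). *Ccnb1*, the mitotic cyclin B1, differed by -0.02 (standard error 0.28), *Top2a*, the topoisomerase that untangles chromosomes, by -0.06 (standard error 0.29), and *Aurka*, a spindle kinase, by -0.18 (standard error 0.35). *Foxm1*, the transcription factor of mitotic genes, was the 1 member with an unadjusted p under 0.05, and fell by 1.79 in *Btg1*-/- and by 2.52 in WT cells. The level of these genes was lower in *Btg1*-/- cells in both states, with a median *Btg1*-/- minus WT of -0.69 in starved and -0.74 in untreated cells, beside -0.03 and -0.02 over all genes. Of 32 genes of DNA replication, 14 fell in *Btg1*-/- and 15 in WT cells, and 1 rose in each. Without either WT preparation 11 fell in *Btg1*-/- and 6 in WT cells, and without *Btg1*-/- replicate 1 or 2 it was 9 or 8 in *Btg1*-/- and 17 in WT cells. *Tk1*, thymidine kinase, fell by 1.85 in *Btg1*-/- and by 2.95 in WT cells, while *Gins3*, of the replicative helicase, fell by 0.78 in *Btg1*-/- cells and had a response of -0.09 in WT cells. Among 21 G1 cyclins and CDK inhibitors, 4 had a difference above 0 and 0 below 0 at an unadjusted p under 0.05, beside 3.29% and 3.13% of all genes. Fewer were above 0 at that p with any 1 of the 4 cell preparations left out. The median difference of this list was 0.16 with all arrays. It was 0.14 and 0.24 without *Btg1*-/- replicate 1 and 2, and 0.09 and 0.11 without WT replicate 1 and 2. *Ccnd3*, cyclin D3, fell by 0.74 in *Btg1*-/- and by 1.41 in WT cells.

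The promoter of *Plk1* is shown because it holds the cell cycle homology region (CHR) letters TTTGAA, through which mitotic genes are repressed in resting cells. Sequences are from RefSeq on GRCm38.p6, 250 bases before to 50 after the annotated start, written 5′ to 3′ on the strand of the gene. *Plk1* lies at chr7:122159185-122159484 on the plus strand, and the capitals mark the motif, which begins 30 bases after the start. On either strand these letters stood in 75% of 28 promoters of the listed mitosis genes and in 17.9% of all 32851 promoters, which describes the windows and no binding.
Plk1: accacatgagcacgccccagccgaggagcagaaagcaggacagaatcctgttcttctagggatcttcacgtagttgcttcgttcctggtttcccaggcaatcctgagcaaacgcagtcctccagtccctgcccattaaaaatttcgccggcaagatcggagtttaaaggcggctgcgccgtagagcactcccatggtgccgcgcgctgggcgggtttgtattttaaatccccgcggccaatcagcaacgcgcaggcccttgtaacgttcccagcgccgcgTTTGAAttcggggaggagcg

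With all arrays, genes of oxidative stress and of ribosome biogenesis had responses of similar size in both genotypes. Over all genes, 8.44% rose in *Btg1*-/- cells, and in WT cells 13.1% rose and 11.6% fell. Of 23 genes of NRF2, glutathione and thioredoxin, 8 rose in *Btg1*-/- cells, and in WT cells 10 rose and 2 fell. Without either WT preparation 6 rose in *Btg1*-/- and 4 in WT cells, and without *Btg1*-/- replicate 1 it was 4 and 10. *Nqo1*, a quinone reductase and a textbook NRF2 target, measured 7.98 and 7.97 in starved and 5.98 and 6.45 in untreated *Btg1*-/- cells, against 7.30 and 7.49 in starved and 5.89 and 5.80 in untreated WT cells. It rose by 1.76 in *Btg1*-/- and by 1.55 in WT cells, and the difference of 0.21 was within its standard error of 0.29 (limma). *Gclm*, a subunit of the enzyme that starts glutathione synthesis, differed by 0.46 (standard error 0.28). The 2 members below 0 at an unadjusted p under 0.05 were *Gsta4*, a glutathione transferase, which rose by 1.15 in *Btg1*-/- and by 1.96 in WT cells, and *Prdx1*, a peroxidase, at -0.14 in *Btg1*-/- cells and with a rise of 0.37 in WT cells. Of 28 ribosome biogenesis genes 10 rose in *Btg1*-/- and 8 in WT cells. Without *Btg1*-/- replicate 1 or 2, 2 or 4 rose in *Btg1*-/- and 8 in WT cells, and without WT replicate 1 or 2, 6 rose in *Btg1*-/- and 2 or 3 in WT cells. With all arrays 0 had an unadjusted p under 0.05 for the difference. The 4 called in *Btg1*-/- cells alone were *Nop10*, *Polr1c*, *Rrp9* and *Rrs1*, factors of ribosomal RNA synthesis and processing, with differences of 0.20 to 0.70 and unadjusted p of 0.0729 to 0.346 (limma). This list was lower in *Btg1*-/- cells by a median of 0.41 in starved and 0.36 in untreated cells.

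Of 21 genes of cholesterol synthesis and uptake, 18 fell in *Btg1*-/- and 17 in WT cells, beside 7.24% and 11.6% of all genes. The median responses were -1.55 in *Btg1*-/- and -1.60 in WT cells. The median difference was 0.29, and the summed response of the responsive members was 88.5% of that in WT cells. Of 20 responsive members of any size, 15 had the smaller response in *Btg1*-/- cells, beside 3092 of 4131 over all genes. The difference was above 0 for 16 members, beside 6288 of all 12691 genes. Of these 16, 3 had an unadjusted p under 0.05, beside 3.29% of all genes above 0 at that p. *Hsd17b7*, a reductase of the sterol pathway, fell by 1.75 in *Btg1*-/- and by 2.46 in WT cells (difference 0.70, standard error 0.17, unadjusted p = 0.00266, limma). *Ebp*, a sterol isomerase, fell by 0.46 in *Btg1*-/- and by 1.08 in WT cells. In untreated cells the list was at a median of -0.24 in *Btg1*-/- relative to WT, and at -0.01 after starvation. *Sc5d* and *Lss*, enzymes of the same pathway, were called in *Btg1*-/- cells alone, with differences of -0.95 and -0.15 that had unadjusted p of 0.171 and 0.591 (limma). *Sc5d* had 1 group mean under the background level.

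With all arrays, fewer genes of the extracellular matrix fell in *Btg1*-/- than in WT cells. The same held over all genes, with 919 (7.24%) falls in *Btg1*-/- and 1471 (11.6%) in WT cells. No single difference among the matrix genes passed the adjustment over all genes. Collagens are the fibres and sheets that fibroblasts secrete. Of 22 collagen chains, 7 fell in *Btg1*-/- and 12 in WT cells. At an unadjusted p under 0.05, 7 had a difference above 0 and 0 below 0, beside 3.29% and 3.13% of all genes. Those above 0 were 2 without WT replicate 1, where 7 fell in each genotype, and 4 without *Btg1*-/- replicate 2, while without *Btg1*-/- replicate 1 3 fell in *Btg1*-/- and 13 in WT cells. *Col6a1*, a chain of the microfibrillar collagen VI, measured 11.15 and 11.37 in starved and 11.77 and 11.93 in untreated *Btg1*-/- cells, against 10.50 and 10.56 in starved and 11.82 and 11.89 in untreated WT cells. Untreated cells overlapped between genotypes, and both starved *Btg1*-/- arrays lay above both starved WT arrays. *Col6a1* fell by 0.58 in *Btg1*-/- and by 1.33 in WT cells (difference 0.74, standard error 0.15, unadjusted p = 0.000559, adjusted p = 0.444, limma). *Col1a1*, the main chain of the fibrillar collagen I, measured 11.75 and 11.45 in starved and 12.55 and 12.27 in untreated *Btg1*-/- cells, against 10.66 and 10.77 in starved and 12.30 and 12.07 in untreated WT cells. The pattern was that of *Col6a1*, with a fall of 0.81 in *Btg1*-/- and of 1.48 in WT cells. The other 5 were *Col1a2*, *Col6a2*, *Col3a1*, *Col2a1* and *Col4a1*, with differences of 0.30 to 1.10.

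Enzymes and chaperones modify, fold and trim procollagen. Of 27 genes of collagen processing and elastic fibres, 7 fell in *Btg1*-/- and 14 in WT cells, beside 919 and 1471 of all genes. Of the 27, 4 had a difference above 0 at an unadjusted p under 0.05, beside 3.29% of all genes. This number was 2 without either WT preparation, where 3 fell in *Btg1*-/- and 5 or 7 in WT cells, and 2 or 4 fell in *Btg1*-/- and 16 in WT cells without *Btg1*-/- replicate 1 or 2. *Pcolce*, which enhances the removal of the procollagen tail, fell by 0.37 in *Btg1*-/- and by 0.87 in WT cells (difference 0.50, standard error 0.13, unadjusted p = 0.00332, limma). *Serpinh1*, the collagen chaperone HSP47, fell by 0.70 in WT cells and had a response of -0.25 in *Btg1*-/- cells (adjusted p = 0.191, limma). The prolyl hydroxylase subunits *P4ha2* and *P4ha3* differed by 0.40 and 0.68. Of 24 integrins, laminins and basement membrane genes, 2 fell in *Btg1*-/- and 8 in WT cells, and 4 had a difference above 0 at an unadjusted p under 0.05 (1 without either WT preparation, where 2 or 3 fell in WT cells). These were *Nid2*, a linker of basement membranes, *Itgbl1*, *Sparc*, a collagen-binding matricellular protein, and *Itga5*, the fibronectin receptor chain. *Itgbl1* measured 7.59 and 8.11 in starved and 8.15 and 8.02 in untreated *Btg1*-/- cells, against 4.68 and 6.04 in starved and 7.39 and 7.0 in untreated WT cells. Its response was -0.24 in *Btg1*-/- cells and a fall of 1.83 in WT cells. Of 21 ER chaperones and degradation factors, through which matrix proteins pass, 9 fell and 1 rose in *Btg1*-/- cells and 11 fell and 1 rose in WT cells. Without *Btg1*-/- replicate 1, 4 fell in *Btg1*-/- and 10 in WT cells, and without WT replicate 1, 8 and 6. *Calr* and *Pdia6*, folding factors of the ER, fell by 1.18 and 0.85 in *Btg1*-/- and by 1.87 and 1.59 in WT cells.

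Of the 11 fibroblast markers kept, 4 fell in *Btg1*-/- and 9 in WT cells (4 and 3 without WT replicate 1, 4 and 5 without WT replicate 2, and 2 and 9 without *Btg1*-/- replicate 1), and 4 of the 11 are also on a matrix list. Their sum was 104 to 105 log2 units in starved and 112 in untreated *Btg1*-/- cells, against 97.5 to 98.2 in starved and 109.9 in untreated WT cells. *Pdgfrb*, the receptor for platelet-derived growth factor B on fibroblasts, fell by 1.25 in WT cells and had a response of -0.58 in *Btg1*-/- cells (adjusted p = 0.0621, limma). Among all genes, 919 fell in *Btg1*-/- and 1471 in WT cells, beside the 4 and 9 markers. The part of the fibroblast share or state in the matrix values was not tested.

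Contractile genes fell in nearly equal numbers, and their summed response was 82.2% of that in WT cells, beside 77.3% over all genes. Of 15 responsive members of any size, 12 had the smaller response in *Btg1*-/- cells, beside 3092 of 4131 over all genes. Over all 12691 genes, 7.24% fell in *Btg1*-/- and 11.6% in WT cells, and the difference was above 0 for 6288. Of 18 smooth-muscle-type contractile genes, 14 fell in *Btg1*-/- and 15 in WT cells (9 and 15 without *Btg1*-/- replicate 1), and the difference was above 0 for 15. *Acta2*, smooth muscle actin, measured 14.16 and 14.08 in starved and 14.68 and 14.58 in untreated *Btg1*-/- cells, against 13.37 and 13.57 in starved and 14.64 and 14.65 in untreated WT cells. *Vcl*, the focal adhesion protein vinculin, fell by 1.09 in *Btg1*-/- and by 1.62 in WT cells (difference 0.53, standard error 0.17, unadjusted p = 0.0105, limma). *Csrp1*, a muscle LIM protein, fell by 1.36 in *Btg1*-/- and by 1.55 in WT cells, a difference of 0.19 (standard error 0.12). The *Acta2* promoter, chr19:34255324-34255623 on the minus strand, is shown because its window holds the letters GGAATG, the core bound by TEAD factors in muscle and growth genes, in capitals 146 bases before the start. These letters stood in 42.1% of 19 promoters of listed contractile genes and in 14.7% of all promoters, on either strand.
Acta2: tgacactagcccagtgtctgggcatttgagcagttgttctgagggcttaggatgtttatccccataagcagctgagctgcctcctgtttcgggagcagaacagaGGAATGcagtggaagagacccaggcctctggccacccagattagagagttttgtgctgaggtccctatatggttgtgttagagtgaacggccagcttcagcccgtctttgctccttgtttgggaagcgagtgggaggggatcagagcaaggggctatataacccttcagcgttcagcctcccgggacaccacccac

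WNT pathway genes had the smallest share of the WT response among the lists with at least 10 responsive members, at 49.8%, with all arrays. Without *Btg1*-/- replicate 2, with responsive members picked anew, they stood at 62.1%, above lysosome genes at 51.8%. WNT proteins are secreted signals that act through Frizzled receptors, and SFRP proteins bind them. Of 28 genes, 8 fell in *Btg1*-/- and 10 in WT cells, beside 7.24% and 11.6% of all genes. At an unadjusted p under 0.05, 9 had a difference above 0 and 0 below 0, beside 3.29% and 3.13% of all genes. Those above 0 were 5 without *Btg1*-/- replicate 2 or WT replicate 1 and 4 without WT replicate 2. Falls were 1 or 2 in *Btg1*-/- and 12 in WT cells without *Btg1*-/- replicate 1 or 2, and 5 in each genotype without either WT preparation. *Ccn5*, a matricellular protein induced by WNT, measured 9.99 and 9.66 in starved and 11.39 and 10.60 in untreated *Btg1*-/- cells, against 7.14 and 7.92 in starved and 11.03 and 10.56 in untreated WT cells. Its fall was 1.17 in *Btg1*-/- and 3.26 in WT cells (difference 2.09, standard error 0.43, unadjusted p = 0.000718, adjusted p = 0.471, limma). *Dkk3*, a divergent member of the Dickkopf family, measured 9.86 and 9.94 in starved and 11.25 and 10.74 in untreated *Btg1*-/- cells, against 7.56 and 8.33 in starved and 10.98 and 10.72 in untreated WT cells. For both genes untreated cells overlapped between genotypes and starved cells did not. *Rspo2*, a secreted amplifier of WNT signals, fell by 1.82 in *Btg1*-/- and by 3.65 in WT cells, and *Sfrp1* by 1.69 in *Btg1*-/- and by 3.47 in WT cells. *Wnt2* and *Wnt5a*, the ligands among them, fell by 1.51 and 0.59 in WT cells and had responses of -0.20 and 0.02 in *Btg1*-/- cells. The receptor *Fzd2* fell by 0.72 in *Btg1*-/- and by 1.33 in WT cells. The values of *Wnt4* lay the other way round, with a fall of 1.92 in *Btg1*-/- cells and a response of -1.01 in WT cells (unadjusted p = 0.156 for the difference, limma).

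TGF-β and BMP signals share SMAD transcription factors. Of 30 genes of these pathways, 7 fell and 1 rose in *Btg1*-/- cells and 11 fell and 1 rose in WT cells, beside 919 and 1471 falls over all genes. Of 14 responsive members of any size, 13 had the smaller response in *Btg1*-/- cells, beside 3092 of 4131 over all genes. Over all genes the difference was above 0 for 6288 and below 0 for 6403. In this list it was above 0 for 24, of which 5 had an unadjusted p under 0.05, and below 0 for 6, of which 1 had. At that p, 3.29% of all genes were above 0 and 3.13% below 0. The 5 became 2 without either WT preparation. *Fst*, the activin antagonist follistatin, measured 9.58 and 9.13 in starved and 11.22 and 11.34 in untreated *Btg1*-/- cells, against 8.28 and 7.81 in starved and 11.19 and 10.84 in untreated WT cells. It fell by 1.92 in *Btg1*-/- and by 2.97 in WT cells (difference 1.05, standard error 0.27, unadjusted p = 0.0036, limma). *Id2* and *Id3*, immediate targets of BMP, fell by 1.94 and 1.03 in WT cells. In *Btg1*-/- cells *Id2* fell by 0.90 and *Id3* had a response of -0.39. *Grem1*, a secreted BMP antagonist, was the 1 gene that rose in both, by 1.85 in *Btg1*-/- and by 2.85 in WT cells.

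Chemokines, secreted attractants of leukocytes, had the highest median difference of all lists, 0.79 over 17 genes. In *Btg1*-/- cells 3 fell and in WT cells 6 fell, beside 7.24% and 11.6% of all genes. Of the 17, 5 had a difference above 0 at an unadjusted p under 0.05, beside 3.29% of all genes. Without WT replicate 1, 3 fell in each genotype and 3 had such a difference, and without *Btg1*-/- replicate 1, 0 fell in *Btg1*-/- and 7 in WT cells. *Ccl2*, which attracts monocytes, measured 7.74 and 7.80 in starved and 8.76 and 8.68 in untreated *Btg1*-/- cells, against 5.93 and 6.35 in starved and 8.78 and 9.16 in untreated WT cells. It fell by 0.95 in *Btg1*-/- and by 2.83 in WT cells (difference 1.88, standard error 0.26, unadjusted p = 3.65e-05, adjusted p = 0.232, limma), and with the cell preparation as a block the adjusted p was 0.022. *Ccl7*, its neighbour in the chemokine cluster, measured 10.46 and 10.98 in starved and 11.15 and 11.27 in untreated *Btg1*-/- cells, against 8.79 and 9.71 in starved and 11.38 and 11.47 in untreated WT cells. *Cxcl14* fell by 1.15 in *Btg1*-/- and by 2.51 in WT cells. *Ccl17* and *Cxcl2* had means under the background level in 1 and 3 groups, and their differences of 3.13 and 1.81 were 2.45 and 0.91 with values under 3 set to 3. The median of the list ran between 0.45 and 1.08 when both arrays of 1 of the 4 cell preparations were left out, and between -0.09 and 1.32 when a single array was. Macrophage transcripts were higher in both *Btg1*-/- preparations than in WT cells, and their part in these values was not tested.

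**Figure D3:**
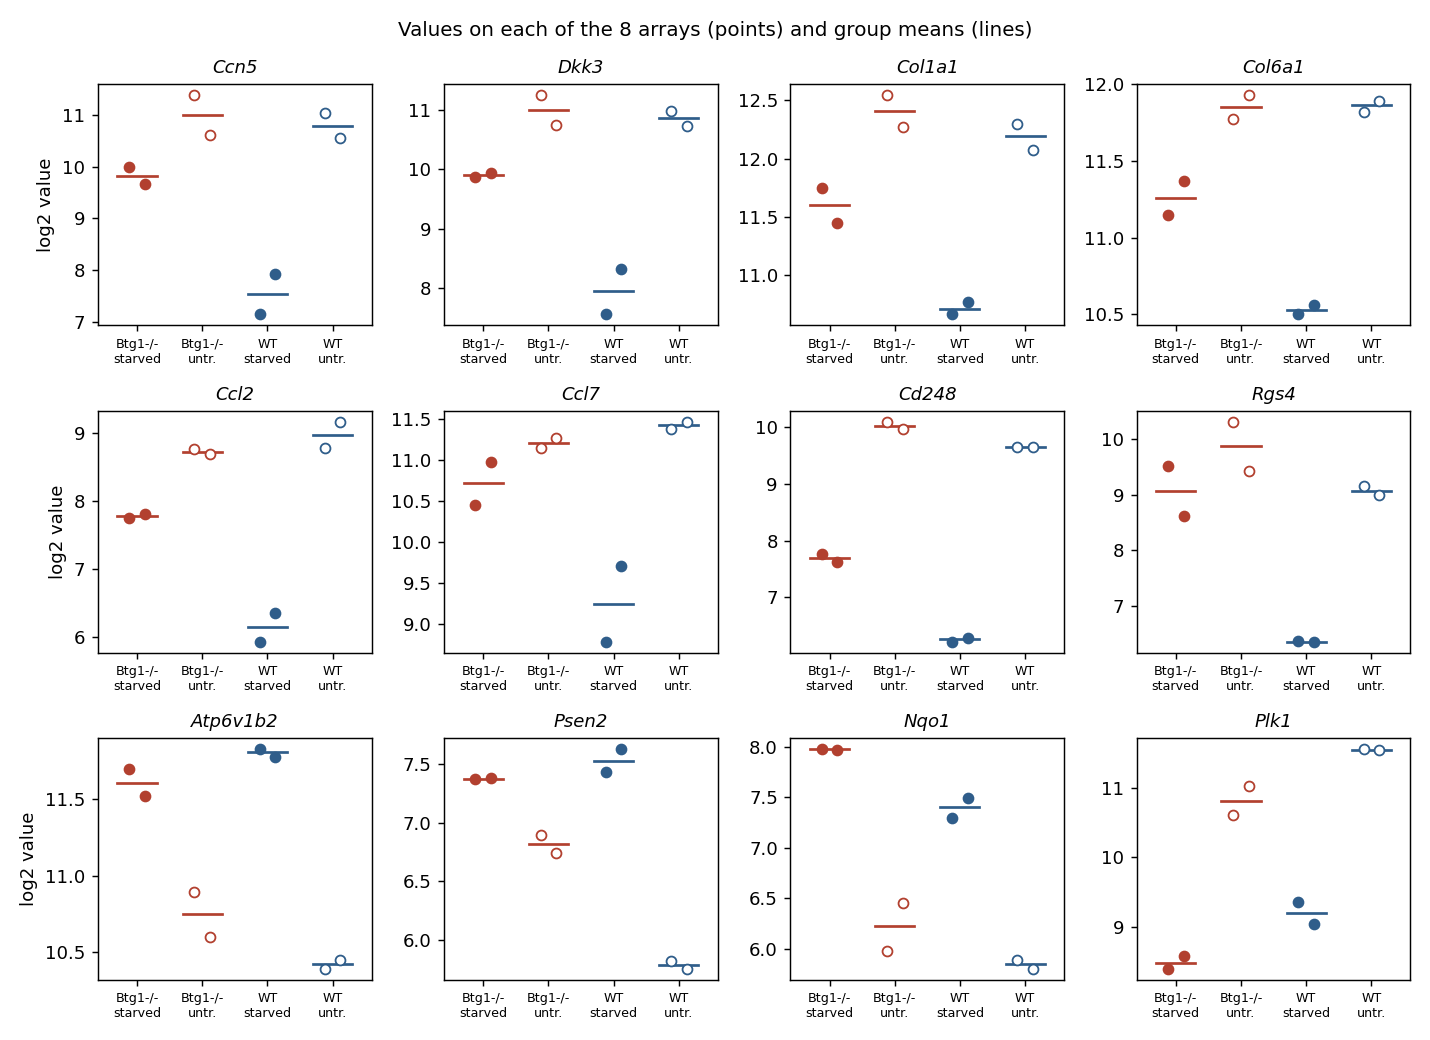
Log2 values of 12 genes on each of the 8 arrays (points, filled for starved and open for untreated cells) with group means as lines, each panel on its own axis that does not start at 0. In the upper 8 panels starved WT cells lie lowest, while *Psen2* and *Atp6v1b2* differ more in untreated cells and *Plk1* falls by 2.34 in *Btg1*-/- and 2.36 in WT cells.

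With the 2 arrays of a cell preparation treated as a block, 3 genes passed an adjusted p of 0.05 from limma for the difference in response, *Ccl2* among them. *Rgs4*, which shortens G protein signals, measured 9.51 and 8.61 in starved and 10.31 and 9.43 in untreated *Btg1*-/- cells, against 6.37 and 6.36 in starved and 9.15 and 9.0 in untreated WT cells. It fell by 2.71 in WT cells and had a response of -0.81 in *Btg1*-/- cells, a difference of 1.90 (adjusted p = 0.0133 with the block, 0.605 without, limma). *AA467197*, whose product is not annotated in the files, measured 7.69 and 6.42 in starved and 7.71 and 6.47 in untreated *Btg1*-/- cells, against 6.93 and 7.12 in starved and 4.10 and 4.58 in untreated WT cells. It rose by 2.69 in WT cells and stood at the starved WT level in *Btg1*-/- cells in both states, a difference of -2.72 (adjusted p = 0.022 with the block, 0.62 without, limma). *Rgs4* was named after its values were seen.

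Lysosomal enzymes degrade what autophagy delivers, and no single difference among their genes passed the adjustment. The V-ATPase is the proton pump that acidifies the lysosome. Of 34 lysosome genes, 12 rose in *Btg1*-/- and 18 in WT cells and none fell in either, beside 1071 and 1667 rises over all genes. The difference was below 0 for 30, beside 6403 of all 12691 genes. Of these 30, 6 had an unadjusted p under 0.05, beside 3.13% of all genes. The 6 became 1 without either WT preparation, where 8 rose in each genotype, 2 without *Btg1*-/- replicate 1, where 9 rose in *Btg1*-/- and 21 in WT cells, and 10 without *Btg1*-/- replicate 2, where 7 and 21 rose. All 20 responsive members of any size had the smaller rise in *Btg1*-/- cells, where 3092 of 4131 genes did so overall. *Atp6v1b2*, a subunit of the pump, measured 11.70 and 11.52 in starved and 10.89 and 10.60 in untreated *Btg1*-/- cells, against 11.83 and 11.78 in starved and 10.39 and 10.45 in untreated WT cells. It rose by 0.86 in *Btg1*-/- and by 1.39 in WT cells (difference -0.52, standard error 0.16, unadjusted p = 0.00972, limma). *Atp6v1e1*, another subunit, measured 12.89 and 13.02 in starved and 12.76 and 12.47 in untreated *Btg1*-/- cells, against 13.12 and 13.17 in starved and 12.20 and 12.12 in untreated WT cells. For these 2 subunits *Btg1*-/- cells were higher than WT cells by 0.33 and 0.46 in the untreated state and stood at -0.20 and -0.19 relative to WT cells in the starved state. *Lamp2*, a membrane protein of the lysosome, had a response of 0.22 in *Btg1*-/- cells and rose by 0.63 in WT cells. *Neu1*, a sialidase, rose by 0.88 in *Btg1*-/- and by 1.44 in WT cells.

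*Atp6v0d1*, a subunit of the membrane sector, rose by 0.48 in *Btg1*-/- and by 0.87 in WT cells. Its promoter, chr8:105566015-105566314 on the minus strand, is shown because it holds TCACGTGA, in capitals 4 bases before the start, the core of the element that TFEB factors bind in lysosome genes and which contains the E-box CACGTG. This run stood in 25.0% of 28 promoters of listed lysosome genes and in 0.974% of all promoters. The E-box alone stood in 42.9% of the same 28 and in 7.15% of all.
Atp6v0d1: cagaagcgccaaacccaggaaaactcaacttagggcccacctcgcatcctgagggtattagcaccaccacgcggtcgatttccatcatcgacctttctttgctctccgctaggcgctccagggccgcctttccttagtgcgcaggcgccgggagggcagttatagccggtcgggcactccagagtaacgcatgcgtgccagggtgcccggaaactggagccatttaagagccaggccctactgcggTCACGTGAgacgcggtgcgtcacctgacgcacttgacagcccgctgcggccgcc

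Of 23 autophagy genes and receptors, 6 rose and 1 fell in *Btg1*-/- cells and 10 rose and 1 fell in WT cells. Over all genes, 1071 rose in *Btg1*-/- and 1667 in WT cells. The difference was below 0 for 18 of the 23, beside 6403 of all 12691 genes. Of 14 responsive members of any size, 12 had the smaller response in *Btg1*-/- cells, beside 3092 of 4131 over all genes. Without either *Btg1*-/- preparation 1 rose in *Btg1*-/- and 10 in WT cells, and without WT replicate 1 or 2, 3 rose in *Btg1*-/- and 4 or 3 in WT cells. *Atg12*, which is conjugated during autophagosome formation, rose by 0.52 in *Btg1*-/- and by 1.12 in WT cells (difference -0.60, standard error 0.16, unadjusted p = 0.00466, limma). *Gabarapl1*, of the family that coats autophagosomes, rose by 0.62 in *Btg1*-/- and by 1.14 in WT cells. With responsive members picked anew, the lysosome list stood at 83.7% of the WT response without *Btg1*-/- replicate 1 and 51.8% without *Btg1*-/- replicate 2. It stood at 65.9% and 64.9% without WT replicates 1 and 2. Macrophages are rich in lysosomes, and their transcripts were higher in both *Btg1*-/- preparations than in WT cells. The part of macrophages in these values was not tested.

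The lists differed in the state in which the genotypes were apart. Collagens were at a median of 0.57 in starved and 0.16 in untreated cells (*Btg1*-/- minus WT), WNT genes at 0.53 and 0.12, chemokines at 1.23 and 0.20, and contractile genes at 0.42 and 0.08. For lysosome genes the order was turned, with 0.16 in starved and 0.39 in untreated cells, and autophagy genes stood at 0.07 and 0.23. Mitosis genes had nearly the same distance in both states.

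**Figure D4:**
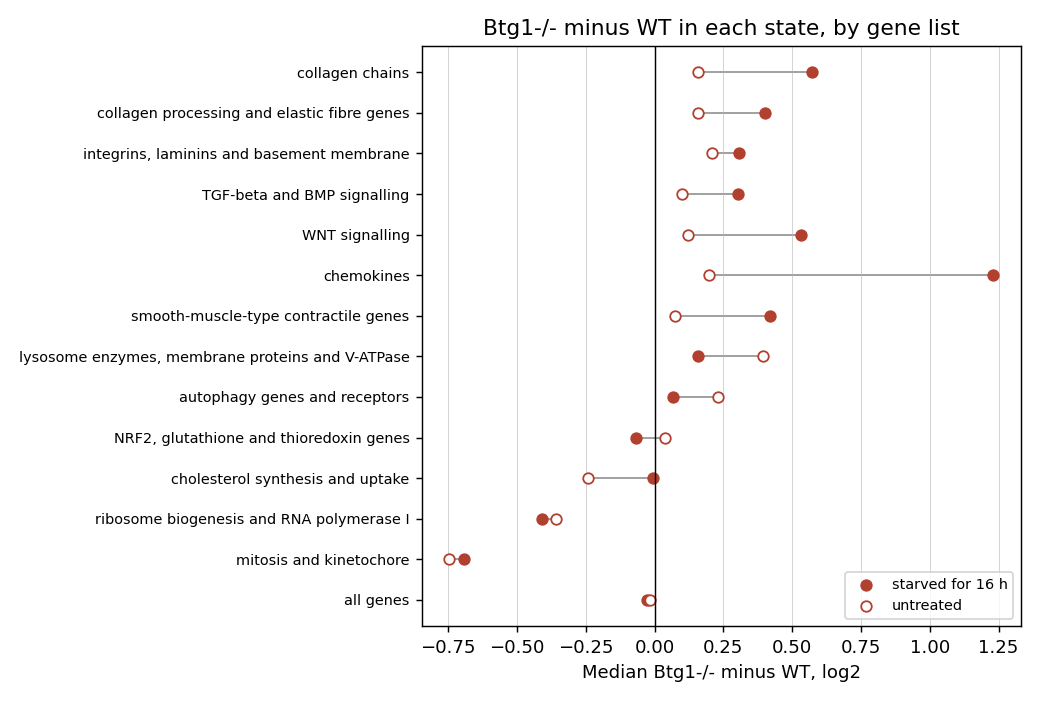
Median *Btg1*-/- minus WT level in log2 units, in starved (filled) and untreated (open) cells. Medians are over the kept members of 13 lists and over all genes. The filled minus the open point need not equal the median difference in response, and for NRF2 and ribosome biogenesis genes the 2 have opposite signs. NRF2 genes stand at -0.07 in starved and 0.04 in untreated cells, with a median difference of 0.11. Chemokines stand at 1.23 in starved and 0.20 in untreated cells and lysosome genes at 0.16 and 0.39.

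Over all genes, 8.44% rose and 7.24% fell in *Btg1*-/- cells, and 13.1% rose and 11.6% fell in WT cells. Of 19 p53-responsive and GADD45 genes, 5 rose and 1 fell in *Btg1*-/- cells and 7 rose and 2 fell in WT cells. All 9 responsive members of any size had the smaller response in *Btg1*-/- cells, beside 3092 of 4131 over all genes. Without WT replicate 1, 3 rose in each genotype and none fell. *Pmaip1*, the death factor NOXA, rose by 0.72 in WT cells and had a response of 0.19 in *Btg1*-/- cells (unadjusted p = 0.0278 for the difference, limma). Of 20 heat shock genes, 3 fell and 1 rose in *Btg1*-/- cells and 5 fell and 1 rose in WT cells (2 falls in each without WT replicate 1, and 0 and 5 without *Btg1*-/- replicate 1). *Cryab*, the small heat shock protein αB-crystallin, fell by 0.77 in *Btg1*-/- and by 1.92 in WT cells (difference 1.15, standard error 0.29, unadjusted p = 0.00323, limma). The 23 genes of the IL-6 and inflammatory cytokine list stood at 86.3% of the WT response, with 3 rising and 5 falling in *Btg1*-/- cells and 2 rising and 6 falling in WT cells. *Ptges*, which makes prostaglandin E, fell by 1.56 in WT cells and had a response of -0.25 in *Btg1*-/- cells. No member of the IGF list, of the interferon list or of the metallothionein list had an unadjusted p under 0.05 for the difference, while with the block 3 of the IGF list had, 2 above and 1 below 0. The interferon list had a median of -0.27 that ran between -0.90 and 0.30 when 1 array was left out, and 8 of its 26 members had a difference below 0 at that p without *Btg1*-/- replicate 2, up to 11 with 1 array left out and 2 with the block.

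Beyond the lists, the smallest p-values for a difference above 0 belonged to genes whose WT response was below 0. *LOC100044702*, a row with no gene match, measured 3.45 and 3.44 in starved and 3.06 and 2.88 in untreated *Btg1*-/- cells, against 2.18 and 2.97 in starved and 6.44 and 5.96 in untreated WT cells. It lay near the background level everywhere but in untreated WT cells, and its difference of 4.11 was 3.62 with values under 3 set to 3. *Angptl7* had the same form, at 1.40 to 2.57 on all *Btg1*-/- arrays, 2.11 and 1.60 in starved and 5.62 and 5.76 in untreated WT cells, a difference of 2.69 with values under 3 set to 3. *Cd248*, endosialin of the fibroblast surface, measured 7.76 and 7.62 in starved and 10.10 and 9.97 in untreated *Btg1*-/- cells, against 6.22 and 6.29 in starved and 9.65 and 9.65 in untreated WT cells. It fell in both genotypes, with a difference of 1.05 (standard error 0.18, unadjusted p = 0.000176, adjusted p = 0.444, limma). *Cdo1*, which oxidises cysteine, fell by 2.17 in *Btg1*-/- and by 4.17 in WT cells. *Nuak1*, an AMPK-related kinase, fell by 0.86 in *Btg1*-/- and by 2.05 in WT cells, and *Prss23*, a serine protease, by 0.65 in *Btg1*-/- and by 1.52 in WT cells.

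Below 0, *Lgals3*, the lectin galectin 3, had the smallest p. It measured 13.49 and 13.37 in starved and 11.99 and 11.84 in untreated *Btg1*-/- cells, against 13.98 and 13.89 in starved and 11.71 and 11.68 in untreated WT cells (difference -0.73, standard error 0.12, unadjusted p = 0.000193, adjusted p = 0.444, limma). *Psen2*, a catalytic subunit of γ-secretase, measured 7.37 and 7.38 in starved and 6.89 and 6.74 in untreated *Btg1*-/- cells, against 7.43 and 7.63 in starved and 5.82 and 5.75 in untreated WT cells. For *Psen2* the genotypes were apart mainly in untreated cells, and it rose by 1.74 in WT cells against a response of 0.55 in *Btg1*-/- cells (adjusted p = 0.0642, limma). *Clec2d*, a lectin-like ligand of natural killer receptors, rose by 0.55 in *Btg1*-/- and by 1.30 in WT cells, and *Htra1*, a secreted serine protease, by 0.71 in *Btg1*-/- and by 1.27 in WT cells. *Dcaf8*, an adaptor of CUL4 ubiquitin ligases, was the 1 gene called in opposite directions, with a fall of 1.40 in *Btg1*-/- cells and a rise of 1.73 in WT cells, and 2 of its group means were under the background level. Of the 815 genes with an unadjusted p under 0.05 for the difference, 220 had such a mean in at least 1 group.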

How the data were processed

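RNA of 8 MEF samples was hybridised to Illumina bead arrays. GenomeStudio 2011.1 is named in the submitters' processing notes, and the authors normalized the arrays by RMA in ArrayStar. The values they deposited are on the log2 scale, 1 per named row and array. A second deposited table with group means and fold ratios was used only to check the means, which differed by at most 5e-06 over 18109 rows, and its fold columns were not used. Bead counts and detection p-values were not used here, and precision is limited by the number of arrays.

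Rows were named through RefSeq (GRCm38.p6), with 14305 current symbols, 2705 synonyms, 199 older names whose gene has another row, and 923 unmatched. The 4 group means were fitted in R 4.3.3 by limma 3.58.1, whose prior variance followed intensity (degrees of freedom: residual 4, prior 5.48), and tested two-sided with Benjamini-Hochberg adjustment over 12691 rows. Deviations of same-numbered arrays from their group means correlated at 0.243 in *Btg1*-/- and 0.118 in WT cells, so the numbers were taken to pair the arrays of a cell preparation, which served as a block in an alternative. Other alternatives were filters, scalings, no trend, no moderation, and arrays or preparations left out, of which WT replicate 1 and *Btg1*-/- replicate 2 as a whole were added after seeing the data. The procedure was tested on simulated data.

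The members, lists and rule for named genes were chosen with earlier results of these data known. Named were the 12 genes with the smallest p in each direction whose responses did not overlap between genotypes, up to 3 members of each list, the responsive genes of most extreme difference, and genes of the study, in all 199. Other genes of a list were named after their values were seen. Lists are described by counts and medians. Promoters were searched on both strands for the letters given.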

Additional observations from a re-analysis of the deposited data

Results flagged for a closer look

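For 16 of the named genes every pairing of a starved with an untreated array moved one way in *Btg1*-/- cells and the opposite way in WT cells, as did 367 (2.89%) of all genes tested, 188 of them with a group mean under the background level. The difference was tested with limma for each and passed an adjusted p of 0.05 for none of the 16.

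A higher response in *Btg1*-/- cells was seen for *Cdc25b*, a phosphatase that activates CDKs (2.48), *Cdk6*, a G1 kinase (1.80), *Cnot8*, a deadenylase subunit of the CCR4-NOT complex (1.37), *LOC100044702* (4.11), *Mrpl20*, a mitochondrial ribosomal protein (0.32), and *Sox9*, a transcription factor of cartilage (0.62). *Paics* and *Ppat*, adjacent steps of purine synthesis, had differences of 1.14 and 0.40, and *Paics* had responses of 0.53 in *Btg1*-/- and -0.61 in WT cells. *Cdc25b*, *Cdk6*, *Cnot8* and *LOC100044702* had 1 to 3 group means under the background level.

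A lower response in *Btg1*-/- cells was seen for *Dcaf8* (-3.12), *Magt1* (-2.97), *Inpp5b* (-2.30) and *Ankrd23* (-1.95), each with 2 group means under the background level. The others were *Amer2*, a regulator of WNT signalling (-1.62), *Fjx1* (-0.96), *Sdhc*, a subunit of succinate dehydrogenase (-0.77), and *Prdx1*, a peroxidase (-0.51). *Amer2* lay above background in all groups, with responses of -0.55 in *Btg1*-/- and 1.07 in WT cells.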

How the results depend on the processing

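Across 20 alternatives, 0 genes passed an adjusted p of 0.05 from limma for the difference in response under every setting but the replicate block, which pairs the arrays of a cell preparation and called 3. The block called no other difference, and called 2486 responses in *Btg1*-/- and 3628 in WT cells, against 1990 and 3138 without it. The count at an unadjusted p under 0.05 (815) was 457 to 1127 with an array or a preparation left out, lowest without both arrays of WT replicate 1. The count of responses called was 942 in *Btg1*-/- cells with no intensity trend, and 662 in *Btg1*-/- and 1994 in WT cells with no moderation. With an array or a preparation left out it was 769 to 1785 in *Btg1*-/- cells, lowest without both arrays of *Btg1*-/- replicate 1, and 912 to 3307 in WT cells, lowest without both arrays of WT replicate 1. Leaving out samples leaves fewer degrees of freedom, and where a preparation is left out the lone array is assumed to vary like the others.

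The share of responsive genes with the smaller response in *Btg1*-/- cells was 69.2% to 82.8% with an array or a preparation left out, 74.8% for responsive genes of any size and 82.7% for those of at least 3-fold, 79.8% with a mean of 3 in all groups and 81.6% with no moderation. The median signed difference was -0.48 to -0.27, -0.17 and -0.53 for the first 3 of these. Of 56 list medians, 27 changed sign under at least 1 alternative, those of chemokines, macrophage markers, oxidative phosphorylation, mitosis, DNA replication, NRF2, ribosome biogenesis and proteasome among them. The medians of collagens, collagen processing, integrins, TGF-β, WNT, contractile, cholesterol, autophagy and lysosome genes did not.

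Of 199 named genes, 13 changed sign under at least 1 alternative, and the cause was not tested. With samples left out, the difference ran between -1.78 and 0.39 for *Atf3*, -0.26 and 0.06 for *Atf4*, -0.17 and 0.09 for *Btg1*, -2.45 and 0.57 for *Fcgr3*, -0.83 and 0.32 for *Gap43*, -2.77 and 0.14 for *Lyz1*, and -0.36 and 0.00 for *Phgdh*. It ran between -0.83 and 1.64 for *Retn*, -0.12 and 1.16 for *Tek*, -0.59 and 2.89 for *Uty*, -0.65 and 1.44 for *Vwf*, -3.13 and 1.36 for *Xist*, and -0.45 and 0.72 for *Hbb-b1*, which was at -0.02 with values under 3 set to 3. The number of arrays and the background level limit what could be called.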
